A study of Mus musculus with 88 samples.

Results

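The proteins described here were 10 transcription factors of the AP-1, C/EBP, PU.1 and RUNX families: Jun, Junb, Jund, Fosl2, Atf3, Cebpa, Cebpb, Cebpd, Spi1 and Runx1. They were found by gene symbol in the protein table of the full time course, where a protein group belonged to a member if the leading entry of its gene names was that symbol. Of the 10, 6 had a protein group among the 5899 groups kept, and 5 had a measured ratio in at least 1 run. The cells were bone marrow-derived dendritic cells of female C57BL/6J mice, grown with GM-CSF. At day 9 they received 100 ng/ml of LPS (lipopolysaccharide of the E. coli K12 strain, a bacterial cell wall component sensed by Toll-like receptor 4) or no stimulus (mock). The cells carried a medium-heavy label (M) from growth. They were pooled, moved to heavy medium (H) at 0 h and then divided between LPS and mock, so both arms share the medium change and the handling. Runs were taken at 0 h and, in each arm, at 0.5 h, hourly from 1 to 6 h, and at 9, 12 and 24 h, with 2 replicates at each point and 42 runs in all. The ages of the mice were not given in the sources used here, and the study's design text describes a course that ends at 12 h, so the 24 h runs were kept apart from the time windows.

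In each run a mixture of unlabelled (L) cells was added as a common reference. The M/L ratio of a protein therefore measures old protein, made before the medium switch, the H/L ratio measures new protein, made after it, and their sum measures total protein. To put runs on 1 scale, each ratio was divided by its run's median sum of M/L and H/L, taken over 2628 proteins whose M/L was present throughout. This run factor lay between -0.68 and 0.69 on the log2 scale, and the divided values are called scaled ratios. The runs held 68083 to 109064 M/L peptide pairs and 3538 to 4082 proteins with an H/L ratio. A ratio was given where a protein had at least 2 peptide pairs. At 0 h the median scaled H/L over proteins was 0.135, so a low H/L is a background level rather than new protein. Whether the replicates were separate cultures is not stated in the labels. The p-values therefore rest on a spread between runs that may be technical. A protein is said to have been called, or to have passed the test, where its p adjusted over all proteins tested was under 0.05. The samples are bulk lysates, in which more cells of a type and more protein per cell cannot be told apart.

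AP-1 is a family of dimers of basic leucine zipper (bZIP) proteins, built from Jun, Fos and ATF subunits, whose genes and activity respond to MAP kinases. JunB is a Jun subunit that is induced early by many stimuli, and JunD is a subunit present in many resting cells. The C/EBP proteins are a separate bZIP family: C/EBPα guides myeloid differentiation, and C/EBPβ and C/EBPδ drive genes of the inflammatory and acute-phase response. PU.1, encoded by Spi1, is an ETS factor that defines myeloid lineages together with C/EBPα and RUNX1, a Runt-domain factor of blood development.

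The promoters of Junb and Cebpb are shown because these were the members whose new protein could be followed in every run and rose with LPS. RefSeq promoter sequences (GRCm38.p6, 250 bases before to 50 after the annotated start, 300 in all) were held for 8 of the 10 members. Both are written from 5′ to 3′ on the strand of the gene, with capitals marking matches on either strand to the half-site of the cyclic AMP response element (TGACG) and to the TATA box (TATAAA), and in Junb also to the CCAAT box (CCAAT).
Junb, chr8:84978699-84978998, minus strand: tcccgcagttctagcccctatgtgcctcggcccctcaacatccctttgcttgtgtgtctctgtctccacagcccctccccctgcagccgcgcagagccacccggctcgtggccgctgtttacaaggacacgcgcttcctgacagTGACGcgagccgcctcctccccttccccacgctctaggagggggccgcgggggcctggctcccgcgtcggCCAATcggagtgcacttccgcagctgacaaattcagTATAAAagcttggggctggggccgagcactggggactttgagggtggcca
Cebpb, chr2:167688665-167688964, plus strand: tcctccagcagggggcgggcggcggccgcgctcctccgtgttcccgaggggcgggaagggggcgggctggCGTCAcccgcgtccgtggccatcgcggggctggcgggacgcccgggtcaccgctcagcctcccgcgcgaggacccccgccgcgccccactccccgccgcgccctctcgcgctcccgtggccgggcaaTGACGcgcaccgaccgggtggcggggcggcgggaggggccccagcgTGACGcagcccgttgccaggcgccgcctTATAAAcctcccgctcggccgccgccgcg
The Junb promoter held 1 half-site match, with its lowest base at position -106 from the annotated start, and 1 TATA match from position 1. The Cebpb promoter held 3 half-site matches, at positions -180, -53 and -7, and 1 TATA match from position 22, and 80.7% of its bases were G or C, against 65.3% in Junb. Over 32851 promoters of the same length, 20.8% held the half-site, 13.6% the TATA box and 2.04% held both, and 37.4% held the CCAAT box. Neither promoter held a match on either strand to the AP-1 motif TGANTCA (in 7.81% of promoters), the full element TGACGTCA (1.79%, which contains the half-site), the C/EBP motif TTGCNNAA (10.8%), the PU.1 motif GAGGAA (28.3%) or the RUNX motif TGTGGT (16.8%). The motifs were chosen with the sequences in view, and a match is a run of letters, not a measured binding site.

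JunB and C/EBPβ were the members with enough peptides to be quantified throughout. JunB (P09450) was identified by 11 peptides and C/EBPβ (P28033) by 17, and both had an H/L ratio in 20 of 20 mock and 20 of 20 LPS runs and in both runs at 0 h. C/EBPδ (Q00322, 2 peptides) had a ratio in 2 of 20 mock runs and in 10 of 20 LPS runs. RUNX1 (Q3UM65, 7 peptides) had a ratio in 8 of 20 mock and 9 of 20 LPS runs. JunD (P15066, 4 peptides) had a ratio in 1 run, a 0 h run, and PU.1 (P17433, 1 peptide) had none. No trypsin group carried the names of Jun, Fosl2, Atf3 or Cebpa, or any of their older symbols. The number of H/L pairs behind a JunB ratio was 2 to 7 in the 0 h and mock runs and 2 to 15 in the LPS runs, and for C/EBPβ 8 to 17 and 10 to 23. The truncated and full-length isoforms of C/EBPβ were counted as a single group.

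**Figure D1:**
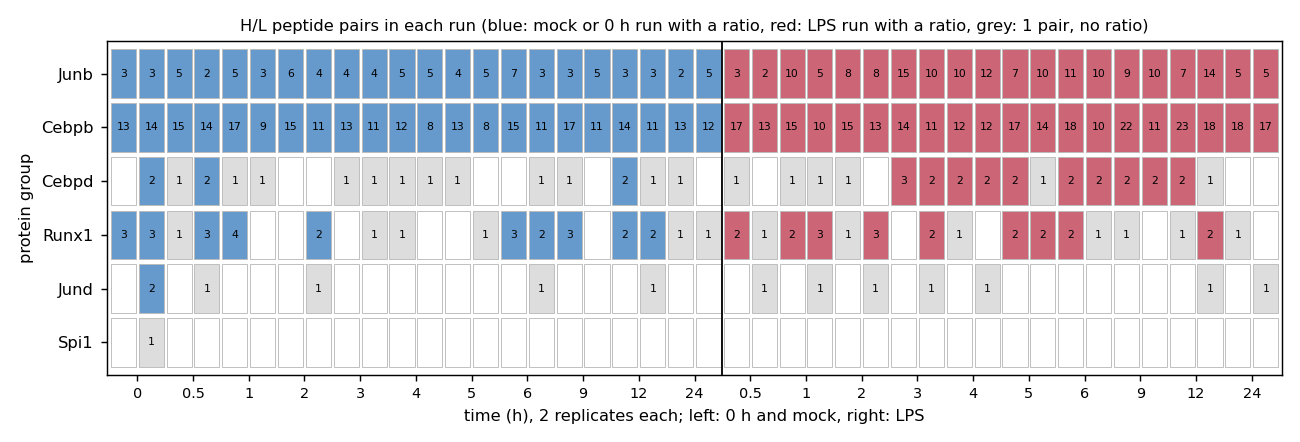
Number of H/L peptide pairs (cell numbers) behind each of the 6 member groups in each of the 42 trypsin runs, by time in h, with 0 h and mock on the left and LPS on the right. Junb and Cebpb have a ratio in every run, while the Cebpd ratios sit mostly in LPS runs from 3 to 12 h.

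A C/EBPδ ratio was present more often in the LPS runs, all of them between 3 and 12 h, and the difference did not pass the test over all proteins. Its ratios in the LPS arm came from both runs at 3, 4, 6 and 9 h and from replicate 1 at 5 and 12 h, and those in the mock arm from replicate 2 at 0.5 h and replicate 1 at 12 h. Pooled over times, 10 of 20 against 2 of 20 runs gave p = 0.0138 in a two-sided Fisher's exact test, and an adjusted p of 1 (Benjamini-Hochberg over 2813 groups with a ratio in some but not all runs). Of those 2813 groups 0.0355% were called. A further 12 mock runs and 6 LPS runs held 1 C/EBPδ peptide pair and therefore no ratio. The same Fisher's exact test gave p = 1 for RUNX1.

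Where C/EBPδ was quantified in the LPS arm, most of its labelled protein was new, as it was in the mock run at 12 h. Its scaled H/L was 0.687 and 0.651 at 3 h, 0.989 and 0.645 at 4 h, 1.47 at 5 h, 1.48 and 1.33 at 6 h, 1.47 and 1.04 at 9 h, and 1.06 at 12 h. The 2 mock values were 0.0985 at 0.5 h and 0.475 at 12 h, and the 0 h value was 0.0783. At 12 h 1 run of each arm can be set side by side. The other mock value comes from 0.5 h, where no LPS run had a ratio. A ratio needed at least 2 peptide pairs, so most mock runs are absent from these values, and the arms were not compared further. The new share of labelled protein, H/(H + M), was 56.3% to 90.0% in the 10 LPS runs (median 77.4%). In the mock runs it was 16.9% at 0.5 h and 61.1% at 12 h. The LPS run at 12 h, of the same replicate number, gave 66.3%. Too few mock ratios were present for a fit, and each value rests on 2 or 3 peptide pairs.

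RUNX1 ratios were spread over both arms. Its scaled H/L ranged from 0.255 to 0.666 (median 0.40) in 8 mock runs and from 0.148 to 0.584 (median 0.286) in 9 LPS runs, and its scaled M/L from 0.392 to 1.16 and from 0.277 to 0.955. The ranges of the arms overlapped in both quantities. The runs at 0 h gave a scaled H/L of 0.847 and 0.154, a gap wider than that between the medians of the arms. JunD, at 0 h in replicate 2, had a scaled M/L of 1.28 and a scaled H/L of 0.341. A further 4 mock and 7 LPS runs held 1 JunD peptide pair each.

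The level of the members before the stimulus was read from iBAQ, an intensity corrected for how many peptides each protein can yield, as a percentile among the proteins of the same digest. Besides trypsin, unlabelled cells at 0 h were digested with AspN and with LysN, 2 samples each, and these digests held members that trypsin missed. C/EBPβ was the most abundant of the members measured in each digest, at the 74.4 and 76.7 percentile in the M channel of the trypsin runs, 85.0 and 80.2 with AspN, and 81.4 and 75.3 with LysN. PU.1 followed with 58.7 and 55.2 (AspN) and 71.9 and 68.7 (LysN), and was at 49.3 in 1 trypsin run and listed at 0 in the other. C/EBPα was at 45.6 and 48.6 with AspN and at 42.7 and 55.4 with LysN. RUNX1 lay at 43.6 and 43.4 with trypsin, and JunB at 32.7 and 44.2. The LysN digest gave Fosl2, the AP-1 subunit Fra-2, at 37.9 and 42.8, and JunB at 38.1 in 1 sample and at 0 in the other. JunD was measured in 1 sample of each digest, at 35.4 (trypsin), 39.6 (AspN) and 30.7 (LysN), and C/EBPδ in 1 trypsin run at 14.4. With AspN and LysN both PU.1 values lay below both C/EBPβ values and above both C/EBPα values, and the LysN values of Fosl2 and C/EBPα overlapped by a narrow margin. With trypsin the JunB values spanned those of RUNX1. Both C/EBPβ values exceeded those of every other member within each digest. Jun and ATF3 were in no digest. Outside C/EBPβ (5 peptides with AspN and 9 with LysN), the AspN and LysN levels rest on few peptides. PU.1 had 2 and 4, C/EBPα 3 and 2, and JunD 1 in each, while Fosl2 and JunB had 2 with LysN.

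**Figure D2:**
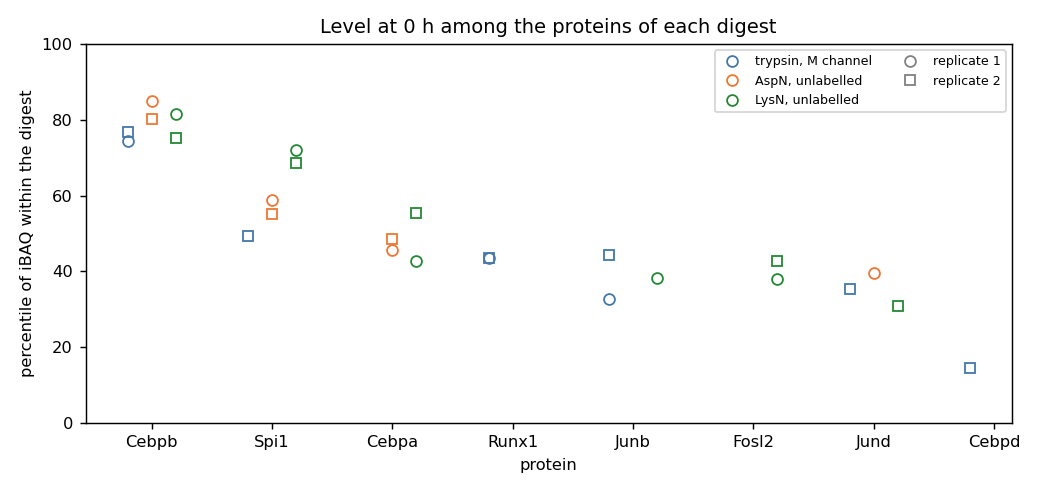
Percentile of iBAQ at 0 h among all proteins of the digest (vertical axis) for the 8 members measured, with circles and squares for replicates 1 and 2 and colours for the digest. Cebpb is highest in each digest, and values listed at 0 are not drawn.

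New JunB protein rose with LPS within the early hours and stayed high to 12 h. Over 1, 2 and 3 h the scaled H/L was 0.28 to 0.467 in the 6 mock runs (median 0.355) and 0.668 to 1.36 in the 6 LPS runs (median 0.882), and the ranges did not overlap. The difference was 1.35 ± 0.18 on the log2 scale (SE, 6 runs an arm, which are 2 replicates at each time), a 2.54-fold rise. It passed the test (adjusted p = 9.49e-05, limma without a replicate term, with Benjamini-Hochberg over 3371 proteins). The LPS run was higher in 6 of 6 pairs of runs of the same time and replicate number. In this window 0.356% of proteins were called higher, and JunB ranked 13 by size. Non-overlapping, higher LPS runs were found in 0.0716% of the 2793 proteins with all 12 values. The same difference between summed channel intensities was 0.98 (adjusted p = 1), between H/M ratios 1.499 (adjusted p = 0.064), and with the runs of replicate 1 or of replicate 2 left out 1.29 and 1.40 (adjusted p = 0.237 and 0.434), so the direction held and the call did not. After subtraction of the 0 h level it was 2.31 (adjusted p = 0.00404).

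Over 6, 9 and 12 h the JunB scaled H/L was 0.31 to 0.50 in mock (median 0.374) and 0.837 to 1.39 with LPS (median 1.19), again without overlap. The difference was 1.58 ± 0.18 (2.99-fold, adjusted p = 2.64e-07, limma, 3316 proteins). By then 10.6% of proteins were called higher, and 5.67% of the 2734 with all values had LPS runs entirely above mock runs, larger shares than in the early window. With summed intensities the late difference was 1.52 (adjusted p = 0.154), with the authors' normalised ratios 0.94 (adjusted p = 0.0287) and after subtraction of the 0 h level 2.49 (adjusted p = 7.72e-05). The change from the early to the late window was 0.23 ± 0.25 (95% interval -0.28 to 0.75, adjusted p = 0.791), so a change in the response between the windows was not detected. With the authors' normalised ratios it was -1.05 (adjusted p = 0.0616), and with H/M ratios -0.24 (adjusted p = 0.912).

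Hour by hour, both JunB LPS runs were above both mock runs at each of the 10 times. Of the 2482 proteins with an H/L value in all 40 runs, 0.0403%, which is 1 protein, met that rule. The mean scaled H/L was 0.423 ± 0.062 in mock and 1.15 ± 0.29 with LPS at 3 h (SD, n = 2), and 0.378 ± 0.0034 and 1.33 ± 0.084 at 6 h. At 12 h the means were 0.363 ± 0.013 and 0.968 ± 0.19. At single times the difference was 0.96 at 0.5 h (adjusted p = 0.625), 1.17 at 1 h (adjusted p = 0.4) and 1.44 at 2 h (adjusted p = 0.0711, limma). It passed the limma test at 3, 4, 5, 6, 9 and 12 h with differences of 1.23 to 1.81. The share of all proteins called in either direction was 0.686% at 3 h, 1.09% at 4 h, 1.47% at 5 h, 2.92% at 6 h, 6.09% at 9 h and 8.32% at 12 h. At 24 h the LPS runs were at 0.567 and 0.626 and the mock runs at 0.463 and 0.459. The 24 h difference was 0.37 ± 0.30 (95% interval -0.26 to 1.00, adjusted p = 0.624), where 7.88% of proteins were called higher.

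Old JunB protein gave no difference that passed the test. Its scaled M/L was 0.273 to 0.679 in mock (median 0.358) and 0.338 to 0.512 with LPS (median 0.469) over 1 to 3 h, and 0.222 to 0.568 (median 0.369) and 0.235 to 0.557 (median 0.38) over 6 to 12 h. The arms overlapped in both windows. The differences were 0.21 ± 0.30 (adjusted p = 1), 0.06 ± 0.30 (adjusted p = 0.936) and, at 24 h, 0.26 ± 0.51 (adjusted p = 0.734) in the limma fit. In the early and late windows 0.332% and 17.1% of proteins were called, and neither JunB nor C/EBPβ was. The sign of the late difference changed with the runs left out (-0.15 to 0.27).

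Total JunB rose with LPS in both windows. It was 0.564 to 1.06 in mock (median 0.781) and 1.01 to 1.83 with LPS (median 1.39) over 1 to 3 h, where the ranges overlapped by a single mock run. Over 6 to 12 h it was 0.531 to 0.96 in mock and 1.33 to 1.81 with LPS. The differences were 0.85 ± 0.16 (adjusted p = 0.0045) and 1.05 ± 0.16 (adjusted p = 2.05e-05, limma), against 0.326% and 10.2% of proteins called higher. JunB ranked 5 of 3371 by its early difference. As for new protein, both LPS runs exceeded both mock runs at all 10 times, a rule met by 0.0403% of proteins. The 24 h total differed by 0.37 ± 0.27 (adjusted p = 0.32). The late call was lost with summed intensities (1.17, adjusted p = 0.0748) and without replicate 2 (1.12, adjusted p = 0.0581).

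**Figure D3:**
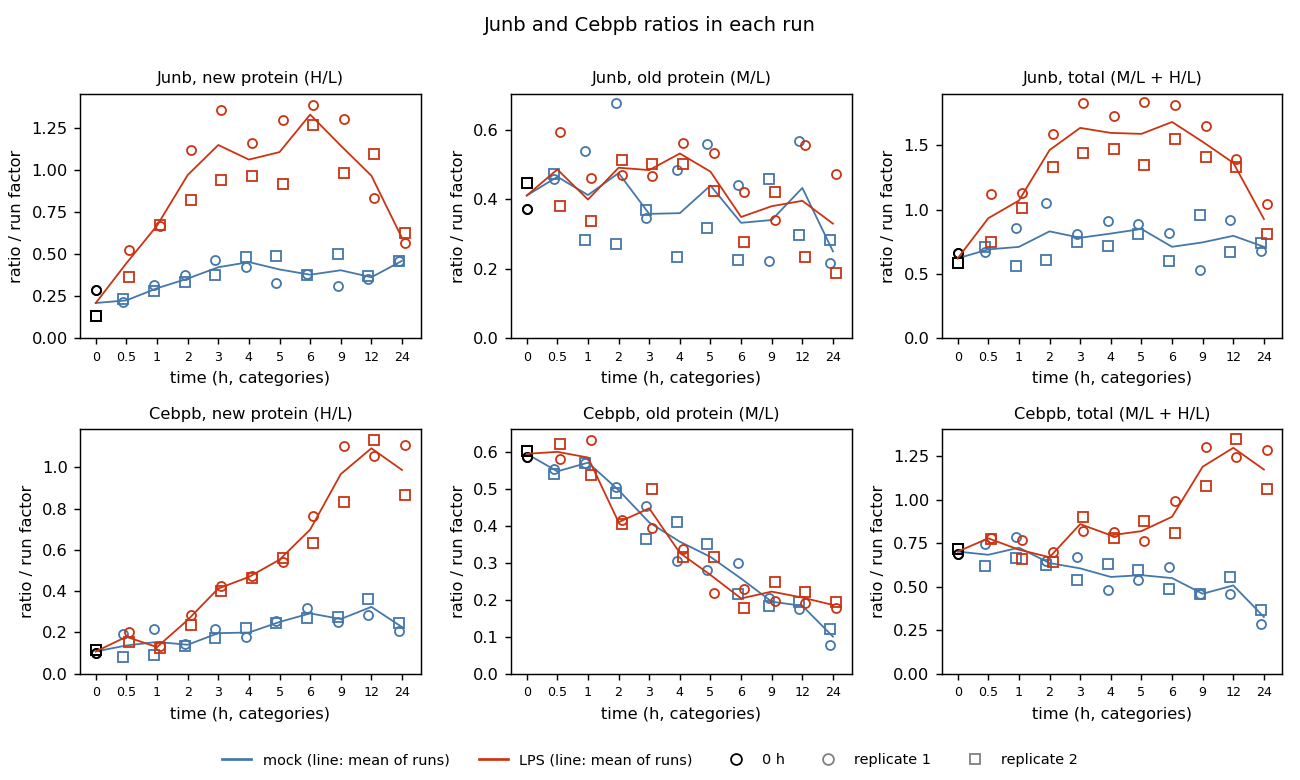
Scaled H/L (new), M/L (old) and M/L + H/L (total) of Junb and Cebpb (ratio divided by run factor) in each run against time in h drawn as categories, with mock in blue, LPS in red, 0 h in black, and lines through the means of 2 runs. New Junb parts between arms from 0.5 h and nears mock at 24 h. The mean of new Cebpb is higher with LPS from 2 h to 24 h, and old Cebpb is lower at late times in both arms.

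New C/EBPβ protein rose with LPS in the late window and at 24 h, and its early difference did not pass the test. Over 1 to 3 h its scaled H/L was 0.0925 to 0.219 in mock (median 0.16) and 0.124 to 0.424 with LPS (median 0.26), with overlapping ranges. That difference of 0.61 ± 0.19 did not pass the test (adjusted p = 0.293, limma, higher in 5 of 6 run pairs). It passed without mock replicate 1 at 1 h (0.81, adjusted p = 0.0253) and with the authors' normalised ratios (1.30, adjusted p = 0.0116). Over 6 to 12 h the values were 0.253 to 0.361 in mock (median 0.282) and 0.632 to 1.13 with LPS (median 0.942), with no overlap. Non-overlapping, higher LPS runs were found in 5.67% of the 2734 proteins with all values. The difference was 1.62 ± 0.19 (3.08-fold, adjusted p = 4.42e-07, higher in 6 of 6 pairs), with the same 10.6% of proteins called higher as for JunB. Without replicate 2 it was 1.76 (adjusted p = 0.0594).

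The response of C/EBPβ grew between the windows. The late minus early change was 1.01 ± 0.26 (95% interval 0.47 to 1.56, adjusted p = 0.0168, limma, 3144 proteins), and 6.3% of proteins were called higher in that contrast. It kept its direction but not its call without the run factor (1.17, adjusted p = 0.0597), with summed intensities (1.10, adjusted p = 0.159), after subtraction of the 0 h level (1.56, adjusted p = 0.0503), and without replicate 1 (0.68, adjusted p = 0.367) or replicate 2 (1.34, adjusted p = 0.376), and with the authors' normalised ratios it was -0.01 (adjusted p = 0.988). At single times the C/EBPβ difference was -0.13 at 1 h, 0.89 at 2 h, 1.08 at 3 h and 1.24 at 4 h, without passing the test. It passed the limma test at 6 h (1.25, adjusted p = 0.0298), 9 h (1.86, adjusted p = 0.000383) and 12 h (1.76, adjusted p = 0.000493). Over all proteins 2.92%, 6.09% and 8.32% were called in either direction at 6, 9 and 12 h. At 24 h the LPS runs were at 1.11 and 0.866 and the mock runs at 0.208 and 0.244. This was a difference of 2.12 ± 0.32 (4.35-fold, adjusted p = 4.38e-05), and with H/M ratios it was 0.99 (adjusted p = 0.0778, where 7.88% were called higher).

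Old C/EBPβ was lower at later times in both arms, which is described without a test. The scaled M/L was 0.587 and 0.602 at 0 h, 0.365 to 0.57 in mock and 0.394 to 0.632 with LPS over 1 to 3 h, and 0.174 to 0.299 and 0.177 to 0.247 over 6 to 12 h. The arms overlapped in both windows, with differences of -0.04 ± 0.12 (adjusted p = 1) and 0.01 ± 0.12 (95% interval -0.24 to 0.25, adjusted p = 0.985, limma). At 24 h the mock runs were at 0.0785 and 0.122 and the LPS runs at 0.178 and 0.194. The 24 h difference was 0.92 ± 0.20 (1.90-fold, adjusted p = 0.000781, limma), with 10.3% of proteins called higher, and C/EBPβ ranked 22 of 3136.

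Total C/EBPβ rose against mock in the late window and at 24 h. Compared with 0.686 and 0.718 at 0 h, it was 0.507 ± 0.066 in mock and 1.30 ± 0.075 with LPS at 12 h, and 0.326 ± 0.055 and 1.17 ± 0.16 at 24 h (SD, n = 2). The mock means were thus below and the LPS means above the 0 h values. The difference was 0.19 ± 0.09 over 1 to 3 h (adjusted p = 0.715), 1.15 ± 0.09 over 6 to 12 h (adjusted p = 9.53e-10) and 1.85 ± 0.16 at 24 h (3.61-fold, adjusted p = 2.29e-09). At 24 h 17.7% of proteins were called higher. The late minus early change in total was 0.96 ± 0.13 (adjusted p = 1.08e-05, limma), against 6.3% called higher. In the late window total C/EBPβ was 0.809 to 1.35 in the 6 LPS runs and 0.458 to 0.615 in the 6 mock runs, where 10.2% of proteins were called higher.

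**Figure D4:**
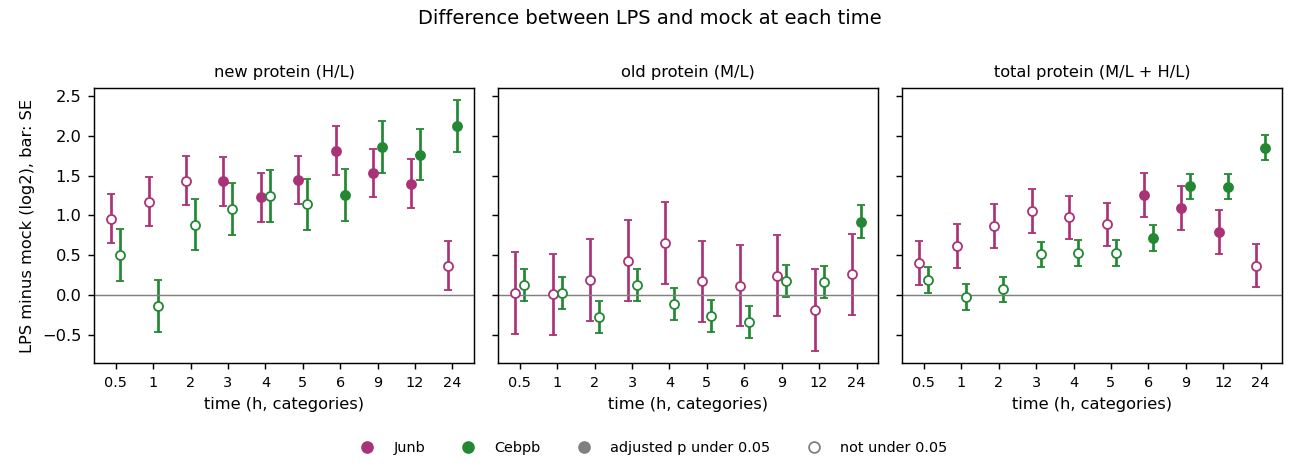
LPS minus mock difference (log2, bars are SE, 2 runs an arm) of new, old and total protein at each time for Junb and Cebpb, filled where the adjusted p was under 0.05. The new Junb difference is 0.96 at 0.5 h and 0.37 at 24 h, and the new Cebpb difference climbs to 2.12 at 24 h.

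C/EBPβ was among the proteins whose old share fell most steeply, more so with LPS. Replacement was read from the share of labelled protein that was old, as the slope of its log2 on time from 0.5 to 12 h with a common start for the arms, which takes no account of cell growth. The C/EBPβ slope was -0.112 ± 0.009 per h in mock, an apparent half-time of 8.96 h (95% interval 7.65 to 10.8), and -0.244 ± 0.009 with LPS, a half-time of 4.1 h (3.81 to 4.45). These ranked 22 and 6 from the steepest of 3342 proteins, whose median slopes were -0.0083 and -0.0092. The difference of -0.132 ± 0.01 passed the limma test (adjusted p = 1.69e-13), with 15.8% of proteins called steeper with LPS. Over 0.5 to 24 h the difference was -0.067 ± 0.016 (adjusted p = 0.00127). A share depends on both old and new protein. Over 6 to 12 h old C/EBPβ differed between the arms by 0.01 ± 0.12 and new C/EBPβ by 1.62 ± 0.19.

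The new share of C/EBPβ was 18.9 ± 2.9% at 0 h (SD, n = 2) and then 34.2 ± 6.4% in mock and 48.5 ± 3.1% with LPS at 3 h, 50.4 ± 2.7% and 74.3 ± 0.12% at 6 h, and 65.6 ± 0.25% and 85.8 ± 3.3% at 12 h. At 24 h it was 67.6 ± 2.0% and 80.5 ± 0.81%. For JunB the share was 33.4 ± 16% at 0 h, 50.4 ± 0.38% and 73.8 ± 1.1% at 3 h, and 61.3 ± 8.6% and 76.5 ± 5.2% at 6 h. It was 48.5 ± 13% in mock and 68.95 ± 14% with LPS at 12 h, and 65.9 ± 3.0% and 65.7 ± 24% at 24 h. The JunB slope with LPS was -0.097 ± 0.021 and its mock slope 0.01 ± 0.021, a difference of -0.107 ± 0.022 (adjusted p = 0.000238, limma). This difference and the sign of the mock slope rest on the common start. With a start for each arm the slopes were -0.033 ± 0.022 in mock and -0.054 ± 0.022 with LPS, a difference of -0.02 ± 0.032 (adjusted p = 0.822, limma). With summed intensities the difference was -0.085 (adjusted p = 0.108), and over 0.5 to 24 h -0.043 ± 0.016 (adjusted p = 0.0381). At 0.5 h the JunB share was 33.9 ± 0.80% in mock, near the 33.4 ± 16% at 0 h, and 47.8 ± 0.98% with LPS. The share at 0 h is a background level rather than new protein, for JunB as for C/EBPβ. The H/M ratio itself, which needs no run factor, gave JunB a late difference of 1.26 ± 0.36 (adjusted p = 0.0174) and C/EBPβ one of 1.71 ± 0.19 (adjusted p = 3.03e-07), with 0.326% of proteins called higher early and 11.4% late.

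**Figure D5:**
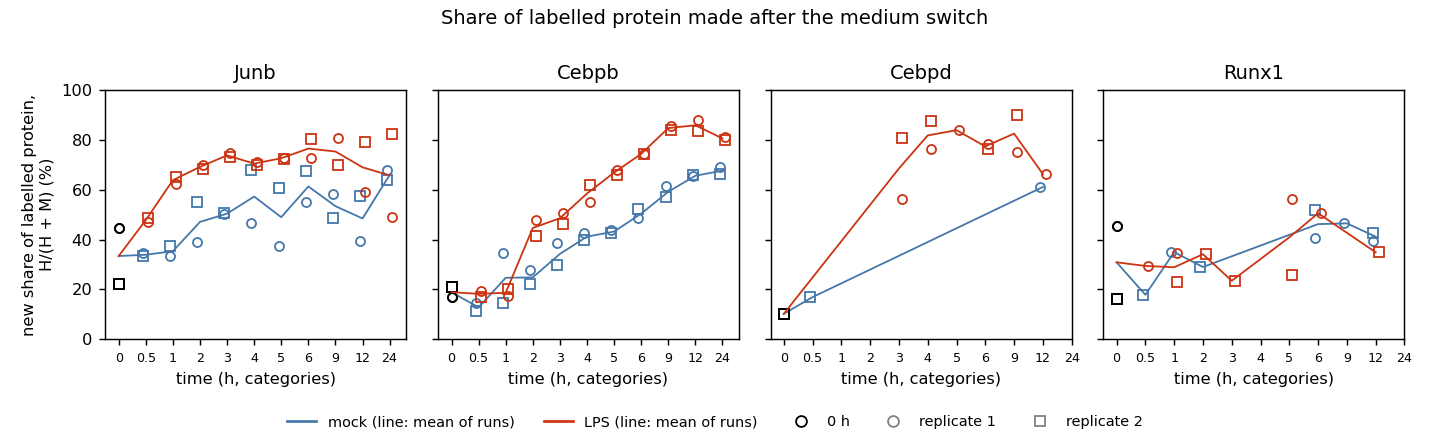
New share of labelled protein, H/(H + M) in percent, in each run against time in h drawn as categories for Junb, Cebpb, Cebpd and Runx1 (mock blue, LPS red, 0 h black, lines through the means). Cebpb climbs in both arms and higher with LPS (85.8% against 65.6% at 12 h), while Cebpd has 2 mock values after 0 h.

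The proteins whose new-protein course was most like that of the members were named by Pearson's r of the scaled log2 H/L over the 40 runs after 0 h, among 2954 proteins. These values describe courses that share the same runs, the light reference and the run factor. For JunB they were the cytokine interleukin-1β (Il1b, 0.874), Tnfaip2 (0.862), interleukin-1α (Il1a, 0.856), AI607873 (0.811) and the serpin Serpinb2 (0.773), with a median r of 0.049 over all proteins. For C/EBPβ they were the autophagy receptor Sqstm1 (0.947), the MHC class I chain H2-K1 (0.933), the LPS co-receptor Cd14 (0.933), the initiation factor Eif1 (0.923) and Marcksl1 (0.922), with a median of 0.291. The r between JunB and C/EBPβ was 0.696.

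Other factors of the same families were seldom measured. Of 32 AP-1 partners and other bZIP factors 7 were in the table, and 1, CREB1, which is named here because it was the only such factor, could be tested, with differences of -1.24 ± 0.59 early and 0.85 ± 0.64 late that did not pass (adjusted p = 0.874 and 0.584, limma). Of 52 partners of C/EBP, PU.1 and RUNX and other myeloid factors, 9 were tested early and 7 late. Early, 0 of the 9 were called (1 at an unadjusted p under 0.05), where 0.356% of all proteins were called higher and 0.119% lower. Late, 1 of the 7 rose, where 10.6% of all proteins were called higher, and 7 are too few to tell the shares apart. This was Zeb2, a zinc-finger repressor (0.87 ± 0.20, adjusted p = 0.00318, limma). The median of the 7 was 0.42, against 0.034 over all proteins.

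The MAP kinase route to AP-1 held 18 proteins tested early, with 0 called (1 at an unadjusted p under 0.05), against 0.475% of all proteins called. Late, 2 of 19 rose and 1 fell, with a median of -0.05, against 10.6% called higher and 1.75% called lower over all proteins, so the share that rose was near the background. Mapkapk2 (MK2), the kinase downstream of p38, rose by 1.52 ± 0.18 (adjusted p = 4.64e-07) and Map2k1 (MEK1), which activates ERK, by 0.94 ± 0.26 (adjusted p = 0.0164). Dusp3, a MAP kinase phosphatase, fell by 0.51 ± 0.13 (adjusted p = 0.00614). Of 13 nuclear cofactors and regulators, such as histone deacetylases and SWI/SNF subunits, 0 were called in either window by limma (1 at an unadjusted p under 0.05 in each).

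Known target genes of PU.1 and C/EBP changed in both directions. Early, 25 were tested: the cytokine Il1b rose by 3.20 ± 0.26 (adjusted p = 5.16e-08) and Csf1r, the M-CSF receptor, fell by 0.88 ± 0.13 (adjusted p = 0.000586). Over all proteins 0.356% were called higher and 0.119% lower in that window. Late, 8 of 26 rose and 2 fell, where 10.6% of all proteins were called higher and 1.75% lower, with a median of 0.297 against 0.034. The largest rises were Il1b (4.76 ± 0.26), the nitric oxide synthase Nos2 (1.92 ± 0.23) and Cd14 (1.83 ± 0.19). Saa3 (1.67 ± 0.45) and Hp (1.39 ± 0.20) rose as well, while 16 of the 26 targets did not pass the test. Csf1r fell (-1.81 ± 0.13), with adjusted p-values of the named targets from 1.38e-12 to 0.0116. Csf1r and Cd14 were also in the list of macrophage markers below.

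Markers of several myeloid cell types were in the lysate. At 0 h 10 of 16 dendritic cell markers were detected, Itgax and the class II chains among them, as were 11 of 14 macrophage, 12 of 13 granulocyte, 1 of 15 lymphocyte and 3 of 11 erythroid and platelet markers. Among dendritic cell markers, Flt3, Zbtb46, Ciita, Batf3, Cd80 and Ccr7 were not. Over 6 to 12 h the median scaled total of the markers measured in every run was 0.953 to 1.12 in mock and 0.724 to 0.863 with LPS for 9 macrophage markers, 2.08 to 2.7 and 1.12 to 2.27 for 5 granulocyte markers, and 0.751 to 0.948 and 0.87 to 1.18 for 6 dendritic cell markers. At 24 h the granulocyte markers were at 1.96 and 2.23 in mock and at 0.885 and 0.899 with LPS. The part of these shifts in the JunB and C/EBPβ results was not tested.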

How the data were processed

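Proteins were quantified by pulsed SILAC mass spectrometry. The authors deposited MaxQuant-style protein group tables; per the file headers they hold un-normalised ratios between channels (M/L, H/L, H/M), normalised ratios, counts of peptide pairs behind each ratio, and intensity values per channel with iBAQ. The search settings were not given in the sources used here, and the submitters' processing notes name the mouse build mm9. From 6266 trypsin groups, 90 reverse, 97 contaminant and 216 site-only groups were marked and left out (some marked more than once), leaving 5899.

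Ratios were divided by a run factor and log2 transformed. A moderated least-squares test equal to limma (R 4.3.3, limma 3.58.1, checked against limma on simulated data) was fitted to 21 group means, with contrasts over 1, 2 and 3 h, over 6, 9 and 12 h and at single times. A window needed 4 of 6 values in each arm. P-values were adjusted by Benjamini-Hochberg over all proteins tested, with a threshold of 0.05. Slopes needed 12 of 18 values per arm. Means are given ± SD and fitted differences ± SE.

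The members, lists and tests were chosen with earlier results of these data known. All members are accounted for; of each list, up to 6 called proteins with the largest change were named, and for a member with H/L in at least 36 of 40 runs, the 5 most like it. Tables were made with Python 3.11.15. Alternatives tried were other scalings, the normalised ratios, summed intensities, subtraction of 0 h values, minimum pair counts, filters, a replicate block, and runs left out.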

Additional observations from a re-analysis of the deposited data

Results flagged for a closer look

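The effect of LPS on C/EBPβ differed between the time windows in a direct test. The late minus early change was 1.01 on the log2 scale for new protein (adjusted p = 0.0168), 0.96 for total protein (adjusted p = 1.08e-05) and 1.12 for the H/M ratio (adjusted p = 0.0096), each from limma over 3144 proteins. For new protein the call was lost without the run factor (1.17, adjusted p = 0.0597), with summed intensities (1.10, adjusted p = 0.159), after subtraction of the 0 h level (1.56, adjusted p = 0.0503) and without replicate 1 (0.68, adjusted p = 0.367) or 2 (1.34, adjusted p = 0.376). With the authors' normalised ratios the change was -0.01 (adjusted p = 0.988). The same changes for JunB were 0.23, 0.20 and -0.24, with adjusted p-values of 0.791, 0.714 and 0.912. The largest group held 2 samples, so no group was tested for a sample far from the others.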

How the results depend on the processing

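Without the run factor the number of proteins called was 2 (new, 1 to 3 h), 181 (new, 24 h), 115 (late minus early), 20 (old, 6 to 12 h) and 119 (total, 6 to 12 h). With the authors' normalised ratios it was 195, 169, 708 and 1003 for the first 4 of these. With summed intensities it was 9, 159, 100, 243 and 310 in the same order, and 269 for new protein over 6 to 12 h. After subtraction of the 0 h level it was 6 (1 to 3 h), 216 (6 to 12 h), 32 (24 h) and 29 (late minus early), where fewer proteins could be tested. Slopes over 0.5 to 24 h gave 988. With runs left out, the counts were 0 to 19, 136 to 390, 184 to 210 and 9 to 222 for new protein (1 to 3 h, 6 to 12 h, 24 h, late minus early), 30 to 600 for old and 111 to 695 for total protein over 6 to 12 h, 399 to 494 for slopes, 0 for presence, and 3 to 6 members above 0 at 0 h. The lowest counts over 1 to 3 h, 6 to 12 h and late minus early came without a whole replicate, with 3 runs an arm in a window. The late minus early change turned to -1.05 (JunB) and -0.01 (C/EBPβ) with the normalised ratios and to -0.24 (JunB) with H/M ratios. Old protein over 6 to 12 h ranged from -0.15 to 0.27 (JunB) and from -0.10 to 0.11 (C/EBPβ) with runs left out. Apart from what the text before this states, the cause of these shifts was not tested. A minimum of 3 peptide pairs, the H/M ratio and a start of its own for each arm were added after the data were seen, and a minimum of 2 pairs changed nothing because every ratio rests on at least 2. Same-numbered runs of the arms deviated together (correlation of replicate differences 0.25 to 0.461 for new protein at 10 times), but the labels do not say what a number marks. With the replicate number as a block 19, 459, 391 and 284 proteins were called for new protein, 773 for old, 806 for total and 635 for slopes, and no member's call changed. Ratios of C/EBPδ, RUNX1 and JunD rest on 2 to 4 pairs.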
